A study of Mus musculus with 6 samples.

Results

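The genes described here are 8 genes of the oligodendrocyte lineage, out of 32285 genes in the deposited count table, followed through the astroglia, the precursors and the other cells of single-cell libraries from mouse striatum. They were taken as a list: the transcription factors Olig1 and Olig2, the growth factor receptor Pdgfra, the surface proteoglycan Cspg4 (NG2), the receptor Gpr17, the sialidase Neu4, the secreted C1q-like protein C1ql1 and the membrane protein Lhfpl3. No cut on their levels chose them, but the list was drawn up with earlier results of these data known. The clusters in which they are described were made by the authors from many genes, which can include these 8.

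Oligodendrocytes, the myelinating glia of the central nervous system, arise from oligodendrocyte precursor cells, which divide in response to platelet-derived growth factor (PDGF) through the receptor Pdgfra and carry Cspg4 on their surface. Olig1 and Olig2 are basic helix-loop-helix factors that specify this lineage and remain active in oligodendrocytes, and Olig2 is also expressed in neural progenitors and in some astrocytes. Gpr17 marks precursors on the way to differentiation, when they start to leave the cell cycle, and Cspg4 is also a known marker of pericytes, the mural cells of small vessels.

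The 6 libraries came from wild-type male C57BL/6 mice, 3 from pups at postnatal day 3 (P3) and 3 from adults at 3 months (3m). Striatal cells of several pooled animals per preparation were enriched with magnetic beads against the astrocyte antigen ACSA2 and run on the 10x Chromium 3′ platform, which counts unique molecular identifiers (UMIs), each standing for one captured RNA molecule. The sort was meant for astrocytes, so precursors, oligodendrocytes, vascular cells and microglia in these libraries are the cells that escaped it, and their numbers do not give the makeup of the tissue. Levels are given as UMIs per 1000000 (CPM) of the UMIs of the cells in question, summed per library, and each library counts as 1 replicate.

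The libraries held 5471573 to 10522151 UMIs at 3m and 32193875 to 37795021 at P3, in 16690 cell barcodes. The authors annotated 14373 of them in 24 clusters and placed 9992 of those in 17 astroglial sub-clusters, 213 to 546 per library at 3m and 1985 to 3786 at P3. Astroglial cells were shallower at 3m (median 3631 UMIs) than at P3 (7307), so shares of cells with a UMI were compared after every cell had been thinned to 2000 UMIs. In all, 37 barcode sequences occurred in more than 1 library, 28 of them among annotated cells and 1 of them in a cell of the precursor cluster.

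Olig1 (ENSMUSG00000046160) and Olig2 (ENSMUSG00000039830) lie on the plus strand of chromosome 16, at chr16:91269772-91271933 and chr16:91225457-91228677 in build GRCm38 (mm10), with 41094 bases between them. Pdgfra (ENSMUSG00000029231) lies at chr5:75152292-75198215, Cspg4 (ENSMUSG00000032911) at chr9:56865033-56899870, Neu4 (ENSMUSG00000034000) at chr1:94020451-94028334 and Lhfpl3 (ENSMUSG00000106379) at chr5:22746059-23275597, all on the plus strand. C1ql1 (ENSMUSG00000045532) is on the minus strand at chr11:102939264-102946688. Annotated non-coding genes on the opposite strand overlap Olig1 (Gm15966), Pdgfra (Gm42802 and Gm42803), C1ql1 (Gm26668) and Lhfpl3, and whether counting kept the strands apart is not given in the sources used here.

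Start-site windows of 300 bases (250 before to 50 after the start, RefSeq, GRCm38.p6) were matched for 5 of the 8 genes. The 250 bases before the start are shown for 3 of them, because these genes took different courses in the data. Olig2 was highest in precursors and, within pooled astroglia, lower at 3m than at P3. Pdgfra was high in precursors and in a few adult cells of a vascular cluster, and Neu4 was the gene that differed most between ages within precursors. Capitals mark matches to CANNTG, the E-box bound by basic helix-loop-helix factors such as Olig1 and Olig2, a motif that reads the same on both strands. The windows are chr16:91225300-91225549, chr5:75152001-75152250 and chr1:94020243-94020492, each on the plus strand and written 5′ to 3′.
Olig2: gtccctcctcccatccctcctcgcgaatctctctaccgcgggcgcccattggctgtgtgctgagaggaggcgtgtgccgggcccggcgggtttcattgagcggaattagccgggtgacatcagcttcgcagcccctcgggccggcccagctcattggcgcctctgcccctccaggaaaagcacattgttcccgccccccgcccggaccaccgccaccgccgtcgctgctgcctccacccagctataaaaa
Pdgfra: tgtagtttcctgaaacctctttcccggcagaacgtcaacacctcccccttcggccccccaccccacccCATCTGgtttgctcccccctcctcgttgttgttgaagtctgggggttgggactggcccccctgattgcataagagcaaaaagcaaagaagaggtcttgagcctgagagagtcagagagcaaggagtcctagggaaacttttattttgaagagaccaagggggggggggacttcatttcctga
Neu4: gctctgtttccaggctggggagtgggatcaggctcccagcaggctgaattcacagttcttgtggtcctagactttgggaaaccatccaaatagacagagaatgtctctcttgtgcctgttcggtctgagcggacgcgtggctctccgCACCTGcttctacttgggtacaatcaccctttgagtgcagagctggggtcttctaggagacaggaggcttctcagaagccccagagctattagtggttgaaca

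Over the full window, CANNTG occurred 0 times at Olig2 and Cspg4, once at Neu4 and 2 times at Pdgfra, where the second match lies after the start, and at Lhfpl3, where both matches read CAGCTG. It was present in 72.3% of 32851 windows of the same length, and CAGCTG in 16.3%, so these matches are a description of the letters only. The Olig2 window was rich in G and C (65%, with 25 CG pairs), against a median of 52.67% and 7 pairs over all windows. Pdgfra (51%, 5 pairs) and Neu4 (55.33%, 6 pairs) were near that median, whereas Cspg4 (60%, 17 pairs) and Lhfpl3 (66%, 12 pairs) lay above it.

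All 8 genes were detected in OPC_18, the cluster that the authors named as oligodendrocyte precursors, and for 7 of them, Cspg4 excepted, it had the highest mean level of any cluster. Clusters were compared over libraries with at least 10 cells of the cluster, which for OPC_18 means the 3 P3 libraries, and the orders that follow are descriptions without a test. Of the 10 genes with the highest ratio of OPC_18 to all other annotated cells, 6 were precursor markers (Pdgfra, Lhfpl3, Gpr17, C1ql1, Tnr and Neu4), and none was a marker of the other 8 cell types checked. The remaining 4 were Vxn, Resp18, Cntn1 and Myt1.

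Pdgfra stood at 612 ± 105 CPM (SD, n = 3 libraries) in OPC_18 and at 10.1 ± 8.49 in the next cluster, the dividing progenitors GPC_9. This order leaves out the 16 adult cells of the pericyte cluster PER_6, too few per library, in which Pdgfra was at 803 CPM, against 966 in the 13 adult OPC_18 cells. Lhfpl3 stood at 871 ± 93.1 CPM in OPC_18, and the next cluster, AST_P3_4, reached 39.0 ± 54.4 CPM on 23 UMIs of shallow cells. Gpr17, a receptor for nucleotide and leukotriene ligands, stood at 264 ± 145 CPM against 11.9 ± 12.3 in the oligodendrocyte cluster ODC_10, and Neu4, which removes sialic acids from glycans, at 32.7 ± 22.5 against 0.411 ± 0.712 in GPC_9.

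Olig1 and Olig2 were not confined to precursors. Olig1 fell from 2527 ± 276 CPM in OPC_18 to 1003 ± 246 in the oligodendrocyte cluster ODC_10, 793 ± 108 in the P3 astrocyte cluster AST_P3_3, 656 ± 25.1 in the oligodendrocyte cluster ODC_2 and 529 ± 63.9 in the progenitor cluster GPC_8. The libraries of OPC_18 did not overlap with those of ODC_10, those of ODC_10 and AST_P3_3 overlapped, and GPC_8, GPC_9 and AST_P3_15 could not be ordered beyond their spread. At the low end of the astroglia were AST_P3_1 with 19.6 ± 10.1 CPM, AST_P3_19 with 23.3 ± 18.7 and the main adult cluster AST_3m_5 with 28.5 ± 4.34.

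Olig2 followed a similar order, with some astroglial clusters above the oligodendrocytes. It was at 605 ± 108 CPM in OPC_18, 238 ± 36.9 in AST_P3_3 and 236 ± 39.7 in GPC_9, whose libraries overlapped, and then at 152 ± 20.6 in GPC_8 and 149 ± 13.6 in ODC_10. Endothelial cells (END_7 and END_17) had Olig1 at 2.36 CPM at P3 and 4.06 at 3m, as cells that should lack the gene. Microglia had 25.6 and 19.6 CPM, and the pericyte cluster PER_6 23.8 and 0. The shallow cluster END_12 had 298 CPM. That cluster has 349 cells, 346 of them from P3 replicate 3, with a median of 1251 UMIs, and its markers of astroglia reached 14831 CPM in the highest library.

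Cspg4 was shared between precursors and vascular cells. The pericyte cluster PER_6 had 306 ± 35.3 CPM, LOW_21 383 ± 95.9 (3m libraries) and OPC_18 256 ± 55.7, and each overlapped with the next, followed by endothelial END_7 at 84.9 ± 14.8 CPM and END_17 at 63.5 ± 8.99. C1ql1, a secreted ligand of adhesion receptors, was the gene with a level of its own in some astroglia, with 576 ± 112 CPM in OPC_18, 65.4 ± 5.23 in AST_P3_19, 27.1 ± 10.1 in AST_P3_11 and 9.66 ± 2.14 in AST_P3_1, with no overlap along this order.

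**Figure D1:**
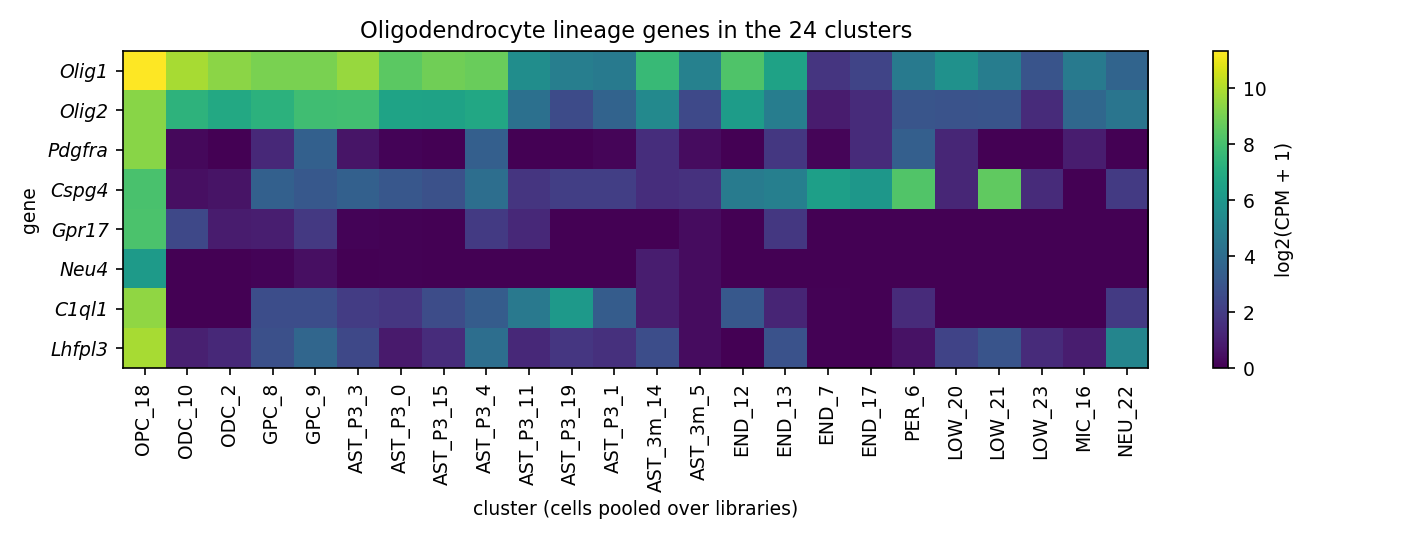
Levels of the 8 genes in the annotated clusters, with genes in rows, clusters in columns and the colour giving log2(CPM + 1) of the cells pooled over libraries. OPC_18 is brightest for every gene but Cspg4, which is as bright in PER_6 and LOW_21, and Olig1 and Olig2 extend through oligodendrocytes, dividing progenitors and P3 astrocytes.

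Among annotated cells outside OPC_18 and the dividing progenitors, most Pdgfra UMIs were in PER_6. At 3m, PER_6 held 39 Pdgfra UMIs in 16 cells (803 CPM), against 4 UMIs in 628 cells at P3 (0.923 CPM). Summed markers of fibroblasts, cells known for Pdgfra, were at 1868 to 6007 CPM in PER_6 at 3m and 473 to 590 at P3, and in OPC_18 all 5 of these markers were at 0 at both ages. Their part in the Pdgfra level of PER_6 was not tested.

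Within OPC_18, the genes differed in how evenly they were spread over the 107 cells. A UMI of Olig1 was found in 106 cells, of Olig2 in 101, of Lhfpl3 in 101, of C1ql1 in 93, of Pdgfra in 90 and of Cspg4 in 78. Gpr17 was found in 69 cells and Neu4 in only 21, and these were also the most uneven: the 10 cells with most UMIs of a gene held 46.2% of the Gpr17 UMIs and 72.9% of the Neu4 UMIs, against 19.9% for Olig1.

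The 10 cells with most Gpr17 (8 from P3, 5 of them from replicate 3, and 2 from 3m) are a selection by Gpr17 itself, and their other genes are described without a test. They held 85 of the 184 Gpr17 UMIs, 27 of 48 Neu4 UMIs and 97 of 149 UMIs of Bcas1, a gene of newly formed oligodendrocytes. All 33 UMIs of Bmp4 and all 20 of Enpp6, both known from committed precursors, were in these 10 cells, and all of them in P3 cells. Within P3, where these 8 cells can be set against the other 86, Pdgfra was at 473 CPM against 630, Cspg4 at 189 against 255, C1ql1 at 433 against 639 and Lhfpl3 at 527 against 914.

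Across 23 clusters with at least 50 cells, Olig1 and Olig2 were the genes most alike each other among 11192 genes (Pearson r = 0.957 of log2 CPM, a description over clusters that share libraries). The next most like were Nkx2-2 for both (r = 0.879 and 0.881) and Sox8 for Olig1 (0.857). Cspg4 was most like Prkg1 (0.941) and Fhl2 (0.894), C1ql1 like Rprm (0.896), Lhfpl3 like Vwc2 (0.883), Pdgfra like Pnlip (0.862), and both Gpr17 and Neu4 like Pnlip (0.908 and 0.975). For the genes nearly confined to OPC_18, this measure rests largely on that 1 cluster.

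Within the astroglia, Olig1 and Olig2 differed widely between the P3 sub-clusters. At P3, Olig1 was at 825 ± 92.9 CPM in sub-cluster 2, 538 ± 41.8 in sub-cluster 6, 530 ± 62.5 in sub-cluster 8, 455 ± 21.1 in sub-cluster 11, 349 ± 30.8 in sub-cluster 0 and 348 ± 8.22 in sub-cluster 1. Sub-cluster 9 (376 ± 24.3, 2 libraries) and the shallow sub-clusters 4 (359 ± 157, 2 libraries) and 12 (382 in 1 library) were in the same range. Sub-clusters 5, 10, 3 and 15, also from P3, had 28.7 ± 20.9, 24.7 ± 15.9, 20.3 ± 8.91 and 20.2 ± 15.2 CPM, and their libraries overlapped with one another. No library of these 4 sub-clusters reached those of the sub-clusters named before. Their levels were near those of P3 microglia (25.6 CPM) and P3 pericytes (23.8 CPM).

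Olig2 was highest in sub-clusters 2 and 8 (258 ± 53.6 and 231 ± 38.8 CPM, overlapping) and then in sub-cluster 6 (152 ± 21.8). At 3m, sub-cluster 7 had Olig1 at 29.2 ± 4.57 CPM and sub-cluster 13 at 190 ± 7.98 over the 2 libraries with at least 10 cells, and Olig2 in sub-cluster 13 was at 46.9 ± 6.05 CPM. C1ql1 ran the other way: its highest levels were in sub-clusters 15 (53.4 ± 6.41 CPM) and 10 (32.3 ± 9.02), both low in Olig1, and sub-clusters 0, 1 and 2 had 2.15 to 3.09 CPM.

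**Figure D2:**
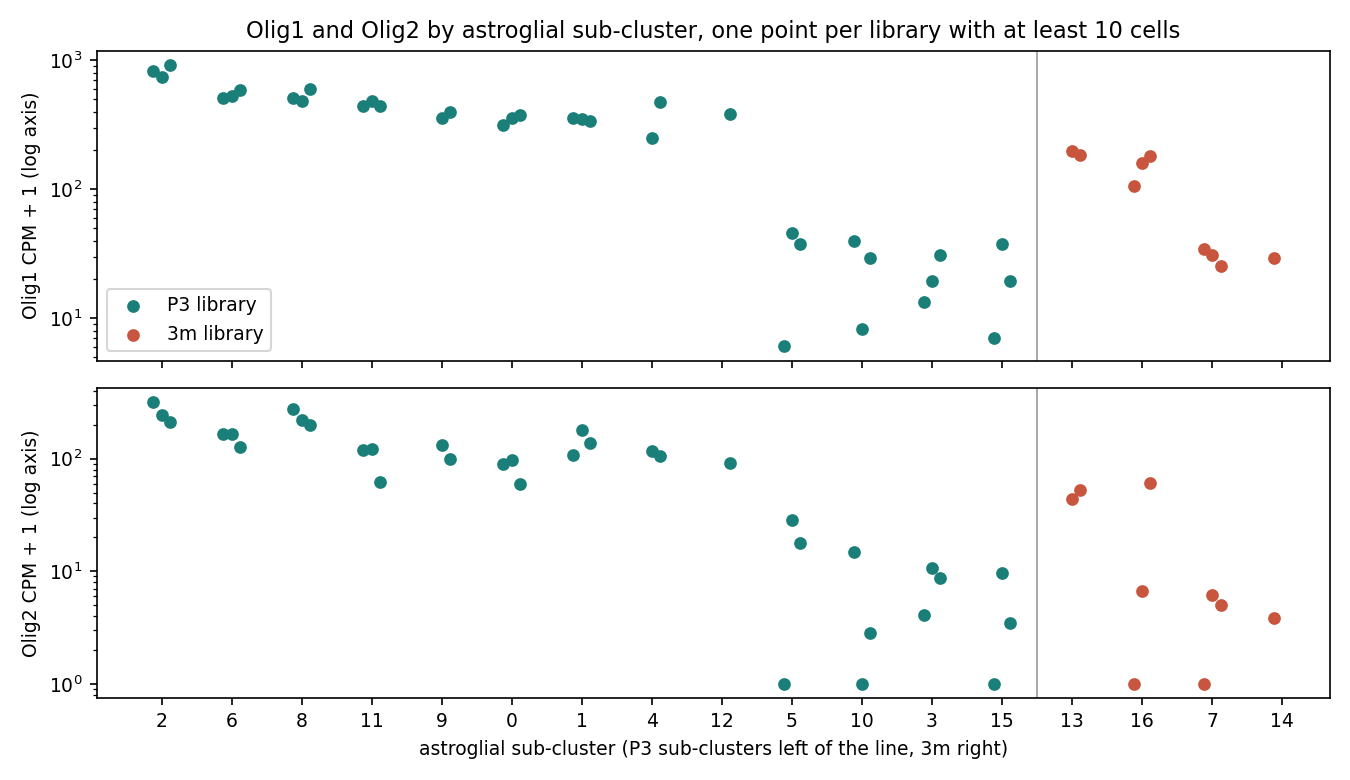
Olig1 and Olig2 (CPM + 1, log axis) in the 17 astroglial sub-clusters, 1 point per library with at least 10 cells, with P3 sub-clusters left of the line and 3m ones right of it. On average, sub-clusters 0, 1, 2, 4, 6, 8, 9, 11 and 12 sit at or above 348 CPM for Olig1, and sub-clusters 3, 5, 7, 10, 14 and 15 sit below 30 CPM on average.

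Sub-clusters 0, 1, 2, 6, 8, 9 and 11 at P3 and 7 and 14 at 3m were grouped as telencephalic, and the rest as other astroglia, which here includes shallow sub-clusters. The other astroglia are those whose cells grouped with non-telencephalic reference astrocytes in the study, and the telencephalic group holds all the remaining sub-clusters, some of which the study did not place in this way. In telencephalic cells, Olig1 was at 446 to 545 CPM in the 3 P3 libraries (497 ± 49.7) and at 24.2 to 30.04 in the 3m libraries (27.5 ± 3.02). In other astroglia the order was turned, with 16.7 to 111 CPM at P3 (54.3 ± 50.1) and 182 to 293 at 3m (220 ± 63.4). Neither pair of groups overlapped, and the difference between the regions was not tested. Both groups held mostly different sub-clusters at P3 and at 3m, so these levels do not follow the same sub-clusters between ages. At P3 the other astroglia include sub-clusters 4 and 12, which were high in Olig1 and came mostly from P3 replicate 3, the library at 111 CPM. The myelin gene Mbp was at 7148 ± 8462 CPM at 3m against 1.37 ± 1.03 at P3 in other astroglia. It was also higher at 3m in telencephalic cells, at 155 ± 81.7 against 1.29 ± 0.14. Of the other astroglia at 3m, sub-cluster 16 held 3031 of 3708 Mbp UMIs and 38 of 221 Olig1 UMIs. Sub-cluster 13 held 676 Mbp and 183 Olig1 UMIs. Summed markers of oligodendrocytes were at 891 to 4614 CPM in sub-cluster 13 and 251 to 402 in telencephalic 3m cells, and their part in the Olig1 level was not tested. The range of sub-cluster 13 includes 3m replicate 1, which has 3 cells of it.

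The adult cells with Olig1 outside the telencephalic group were few. Without sub-clusters 4, 12 and 16, which are shallow, Olig1 was at 184 to 609 CPM at 3m, in 3, 172 and 31 cells per library, and at 15.3 to 29.9 in P3 cells, and Olig2 at 41.6 to 51.2 against 4.26 to 15.9. Sub-cluster 13 provided nearly all of these adult cells, and 168 of its 202 cells came from 3m replicate 2. C1ql1 was at 17.9 ± 4.82 CPM in other astroglia at P3 and 3.51 ± 0.0885 in telencephalic ones, with no overlap over 3 libraries each, and at 0 UMIs in 788 telencephalic cells at 3m.

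The authors placed astroglial cells along a pseudotime from dividing progenitors to adult astrocytes, in 18 bins numbered 2 to 19, of which bins 2 to 14 held P3 cells and bins 15 to 19 3m cells. Bins were made from expression and are described without a test. Olig1 started at 703 ± 42.9 CPM in bin 2 (2 libraries), was at 413 ± 74.1 in bin 5 and peaked in bin 11 at 964 ± 141. The peak was in bin 11 in each P3 library, with 847, 923 and 1120 CPM, and the level was 305 ± 32.3 CPM in bin 14.

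Olig2 peaked in bins 10 and 11 (297 ± 73.3 and 295 ± 27.9 CPM) and was at 66.8 ± 13.3 in bin 14. In the 3m bins with all 3 libraries (16, 17 and 18), Olig1 was at 21.1 to 54.4 CPM and Olig2 at 3.30 to 21.1, and bins 15 and 19 held 31 and 30 cells. Pdgfra and Lhfpl3 were highest in bin 7 (19.2 ± 15.8 and 19.7 ± 13.8 CPM), where the spread between libraries was nearly as large as the mean.

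**Figure D3:**
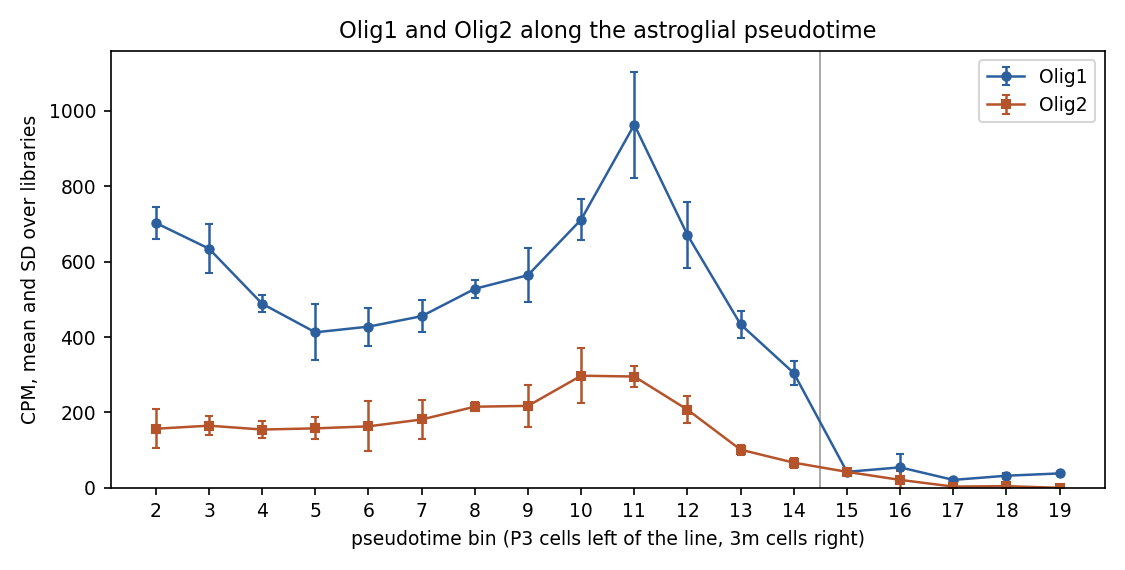
Olig1 and Olig2 (CPM) against pseudotime bin in astroglial cells, as the mean over libraries with at least 10 cells in the bin, with the SD as bars and P3 bins left of the line. Olig1 peaks in bin 11 at 964 CPM, and the 3m bins lie near the bottom of the axis.

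To ask whether the genes go with division, P3 astroglial cells were split by 3 cell cycle genes that are not among the 8: cells with a UMI in at least 2 of Mki67, Top2a and Cdk1 were called cycling (1312 cells) and cells with none of them non-cycling (6639). All 6 genes with enough counts were higher in cycling cells at an adjusted p under 0.05 (edgeR's quasi-likelihood test with library as a block and Benjamini-Hochberg adjustment), which 30.8% of all 13185 genes tested also were (62.8% changed in either direction at that p). Counted with the additional threshold of a 2-fold change, 2 of the 6 were called higher, Pdgfra and Lhfpl3, against 9.73% of all genes called higher and 8.75% called lower. Cycling cells were deeper, with a median of 14781 UMIs against 6628 in non-cycling cells.

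Olig1 was at 505, 535 and 569 CPM in cycling cells of the 3 libraries and at 370, 341 and 339 in their non-cycling cells. Olig2 was at 215, 183 and 144 CPM against 112, 107 and 70.9. Each library was higher in its cycling cells, by 0.71 ± 0.06 on the log2 scale (SE, adjusted p = 4.24e-06) for Olig1 and 1.00 ± 0.06 (adjusted p = 1.23e-07) for Olig2. Olig2 thus stood just under the 2-fold threshold, and passed it under DESeq2, which gave 1.02. The Olig1 and Olig2 differences pool telencephalic and other astroglia, which the states held in different shares. Telencephalic cells were 326 of 335, 456 of 477 and 366 of 500 cycling cells in the 3 libraries. Of the non-cycling cells they were 1330 of 1460, 1556 of 2383 and 1299 of 2796. Non-cycling Olig1 was at 446 ± 44.1 CPM in telencephalic cells and 42.3 ± 34.0 in other astroglia. The part of region in the differences is not given here.

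Pdgfra was at 7.44, 4.66 and 1.44 CPM in cycling cells (46, 40 and 9 UMIs) and at 0.0716, 0.103 and 0.828 in non-cycling cells (1, 2 and 13 UMIs). The fold was large in the first pair of libraries and small in P3 replicate 3, and the fitted difference was 3.76 ± 0.68 on the log2 scale (adjusted p = 0.000697). Lhfpl3 was at 11.5, 7.91 and 6.07 CPM against 0.716, 1.65 and 3.31, a difference of 2.26 ± 0.40 (adjusted p = 0.000614). Without P3 replicate 3 the Pdgfra difference was 5.96 and that of Lhfpl3 3.02.

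Cspg4 (11.8, 7.45 and 10.5 CPM against 8.31, 4.75 and 6.62) and C1ql1 (6.47, 7.68 and 9.11 against 3.65, 4.70 and 5.35) were higher in each library, by 0.70 ± 0.14 and 0.85 ± 0.16 on the log2 scale. Gpr17 had 31 UMIs in cycling against 7 in non-cycling cells and Neu4 4 against 1, too few to be tested. The ratio of their CPM was 10.3 (95% counting interval 4.46 to 27.8) for Gpr17 and 9.33 (0.923 to 459) for Neu4.

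**Figure D4:**
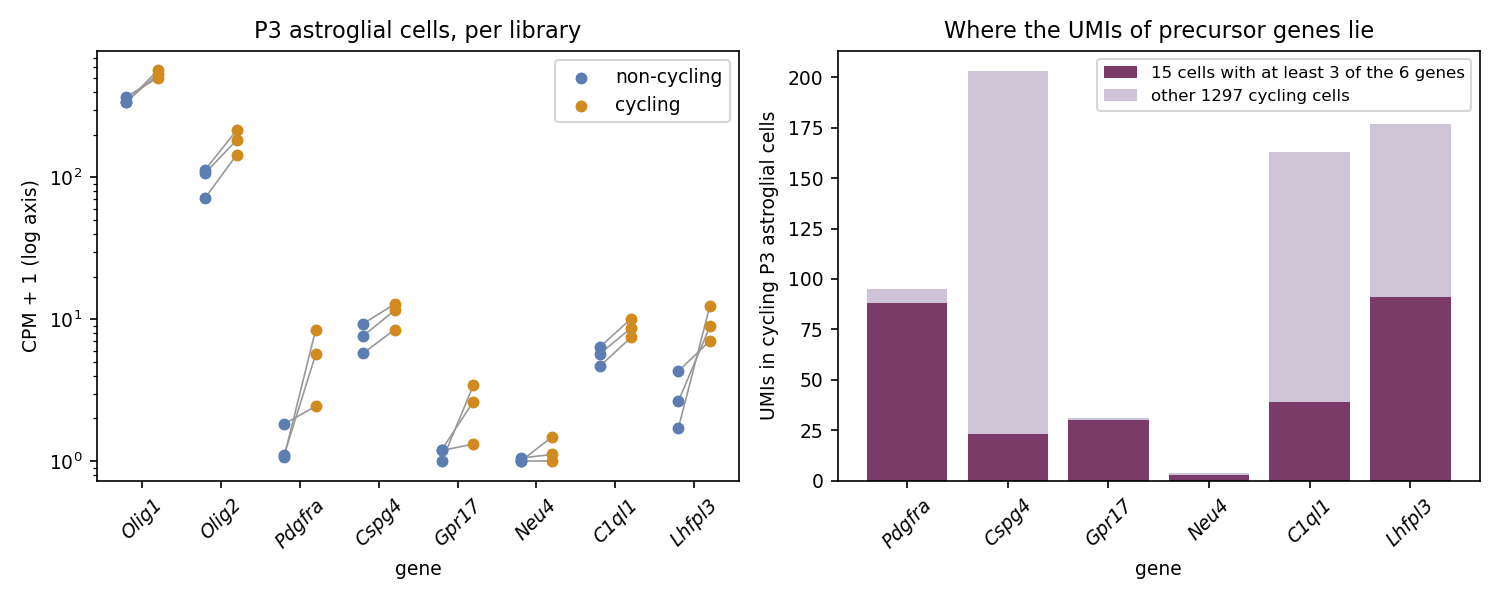
Left, levels (CPM + 1, log axis) in non-cycling and cycling P3 astroglial cells, with a line for each of the 3 libraries; right, the UMIs of 6 precursor genes in cycling cells, stacked by whether the cell had at least 3 of these genes. Every line for Olig1 and Olig2 rises, and 15 cells hold 88 of the 95 Pdgfra UMIs.

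The Pdgfra and Lhfpl3 UMIs of cycling astroglia were concentrated in a few cells. Cells with a UMI of at least 3 of the 6 genes Pdgfra, Cspg4, Gpr17, Neu4, C1ql1 and Lhfpl3 made up 89.7% of OPC_18 (96 of 107, 95% Wilson interval 82.5 to 94.2), 1.14% of cycling P3 astroglia (15 of 1312, 0.694 to 1.88), 0.0452% of non-cycling ones (3 of 6639, 0.0154 to 0.133) and 0 of 1118 at 3m, which allows a share of up to 0.268%. These intervals cover counting error only. The 15 cycling cells came from all 3 libraries (3, 7 and 5), and 12 of them were in the progenitor clusters GPC_8 and GPC_9, 6 in each.

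These 15 cells held 88 of 95 Pdgfra UMIs of the cycling astroglia, 30 of 31 Gpr17 UMIs and 91 of 177 Lhfpl3 UMIs, but 23 of 203 Cspg4 and 39 of 163 C1ql1 UMIs. Their counts of these genes chose them, so they are described without a test. Genes that did not choose them were Olig1 with 1407 CPM and Olig2 with 441, against 525 and 177 in the other 1297 cycling cells and 2458 and 575 in OPC_18 at P3. A UMI of Sox10, a regulator of the oligodendrocyte lineage, was found in 9 of the 15 and in 1.16% of the others.

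Astroglial genes were present in the 15 cells at lower levels than in the other cycling cells. Sox9 was at 206 CPM against 379, Aldh1l1 at 62.4 against 285 and Fabp7 at 8191 against 15728, whereas OPC_18 at P3 had Sox9 at 414, Aldh1l1 at 16.8 and Fabp7 at 6958. Their median depth was 12255 UMIs against 14781 for all cycling cells. At 2000 UMIs per cell, 4 of them and 1 non-cycling cell still showed 3 of the 6 genes.

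Of the 95 Pdgfra UMIs of cycling cells, 88 were in these 15 cells, which were chosen in part by Pdgfra. With the 54 P3 astroglial cells that had a Sox10 UMI left out, Pdgfra no longer had enough counts to be tested. The same held when cells with at least 2 of 5 other precursor genes were left out. Its difference without these cells is therefore not known. Lhfpl3 kept a difference of 1.43 and 1.56 on the log2 scale under these alternatives, and Olig2 0.99 and 1.01. How these cells came to hold genes of both classes was not tested, and no doublet caller was run.

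Between ages, several of the genes were lower at 3m in astroglial cells of both regions pooled. Of the 6 genes with enough counts in astroglial cells, 4 were called lower at 3m (Olig1, Olig2, Cspg4 and C1ql1) in edgeR's quasi-likelihood test, where a call takes a 2-fold change and a Benjamini-Hochberg adjusted p no higher than 0.05. The same threshold called 32.1% of 13530 genes, 16.3% of all genes as lower, so a call on its own is common here. Of all genes called, 2140 were higher and 2204 lower, a split of 1753 and 2790 without scaling between libraries, and the 4 calls held under that setting. Without P3 replicate 2 or P3 replicate 3, C1ql1 had too few counts to be tested and 3 genes were called. None of the 6 was called higher, and the median over them was -2.10 on the log2 scale against -0.04 over all genes.

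Olig1 was at 42.3, 103 and 48.9 CPM in the 3m libraries and at 423, 406 and 418 at P3. Olig2 was at 3.46, 18.98 and 11.5 CPM against 150, 133 and 95.8. Neither gene's groups overlapped, the adult libraries being more uneven than the P3 ones, and the differences were -2.46 ± 0.28 (SE, adjusted p = 1.19e-05) and -3.19 ± 0.35 (adjusted p = 8.51e-06) on the log2 scale. These levels pool both regions, and telencephalic cells were 196 of 213, 283 of 546 and 309 of 359 in the 3m libraries. In other astroglia alone, Olig1 was higher at 3m, and Olig2 was at 34.2 ± 17.9 CPM against 16.6 ± 10.4.

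Cspg4 was at 2.59, 1.63 and 2.04 CPM at 3m and at 9.72, 5.52 and 8.34 at P3, a difference of -1.75 ± 0.42 (adjusted p = 0.00413) without overlap. Summed markers of mural cells, which also carry Cspg4, were at 81.9 to 110 CPM in astroglia at 3m and 74.3 to 110 at P3. The single markers differed: of 4 tested, Pdgfrb was called higher at 3m and Notch3 lower, against 15.8% and 16.3% of all genes. Their median was -1.38 on the log2 scale, against -0.04 over all genes. The part of mural RNA in the Cspg4 level was not tested. C1ql1 had 2 UMIs in 1118 cells at 3m, both in replicate 3 (0, 0 and 1.36 CPM), against 450 UMIs at P3 (4.48, 5.98 and 6.79 CPM). The ratio of P3 to 3m was 12.98, with a 95% counting interval of 3.57 to 108, and the adjusted p was 0.00196.

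For Pdgfra and Lhfpl3 no difference was called. Pdgfra was at 1.73, 0 and 0.679 CPM at 3m (3 UMIs) and at 2.11, 1.44 and 0.936 at P3, and the ratio of P3 to 3m was 2.19 with a counting interval of 0.732 to 10.8. Lhfpl3 was at 1.73, 2.71 and 0 CPM against 3.72, 3.43 and 3.99, a difference of -1.06 ± 0.58 (adjusted p = 0.151), which was -0.07 with the cycling cells left out. In telencephalic cells alone, Lhfpl3 had 0 UMIs in 788 cells at 3m against 241 at P3 and was called lower. Gpr17 (1 UMI at 3m, 39 at P3) and Neu4 (2 and 5) were not tested.

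**Figure D5:**
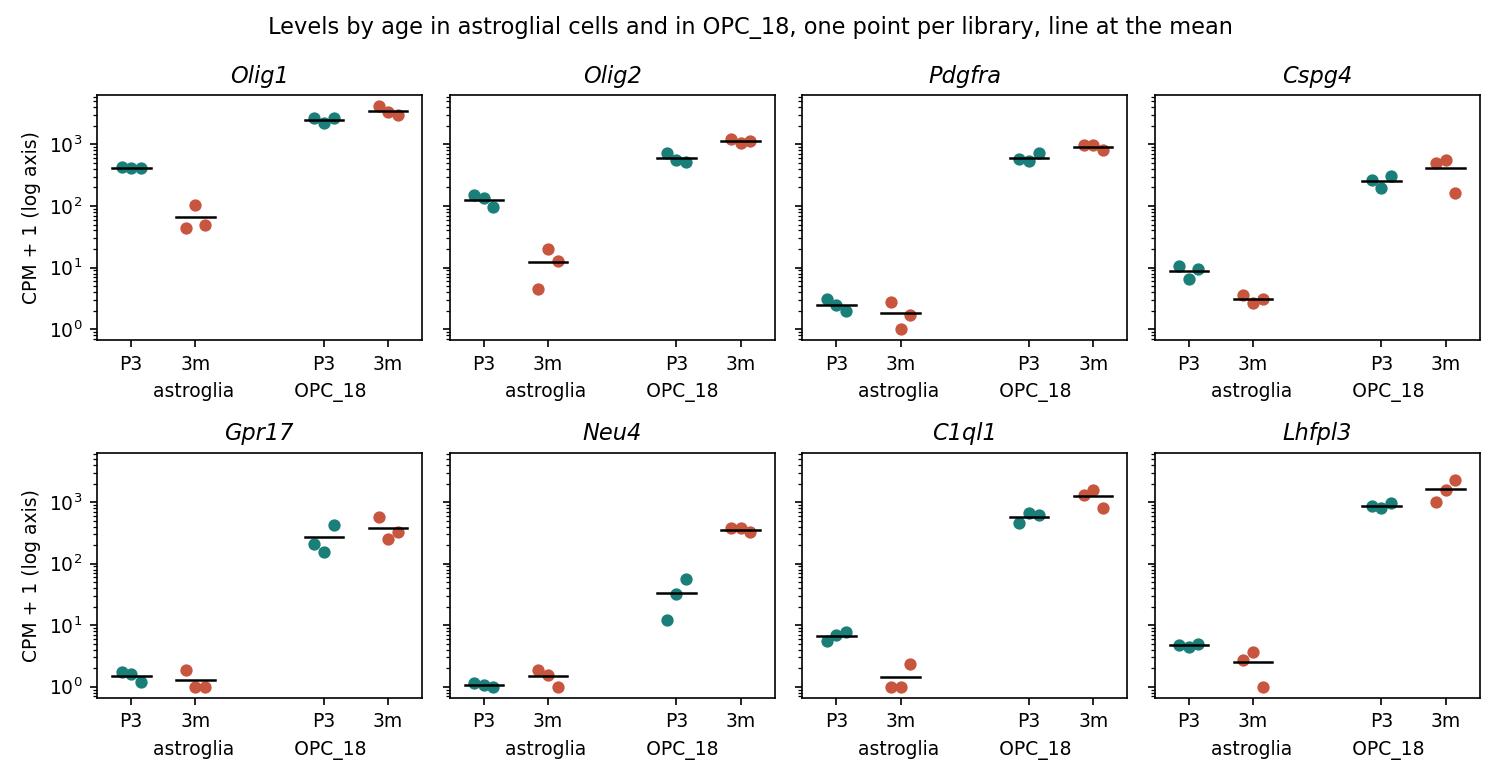
Levels of each gene (CPM + 1, log axis) at P3 and 3m in astroglial cells and in OPC_18, 1 point per library with a line at the mean. In astroglia the 3m points of Olig1, Olig2, Cspg4 and C1ql1 lie below all P3 points, and in OPC_18 the 3m points of Neu4 (321 to 377 CPM) lie above those of P3 (11.0 to 55.9 CPM).

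Shares of cells showed the same genes. After thinning to 2000 UMIs, 40.6% of P3 astroglia (3148 of 7761, 95% Wilson interval 39.5 to 41.7) and 10.7% of 3m astroglia (97 of 906, 8.86 to 12.9) had an Olig1 UMI, after 48 to 947 shallower cells per library at P3 and 16 to 141 at 3m had been left out. Endothelial cells, which should lack the gene, had 0.661% at P3 and 0.667% at 3m (median depths 26465 and 5934 UMIs), microglia 3.81% and 3.77%, and oligodendrocytes 74.5%. Averaged over libraries, the shares were 9.95% against 41.5% for Olig1, 2.12% against 17.2% for Olig2, 0.247% against 1.43% for Cspg4 and 0 against 1.08% for C1ql1, and in each case the ages did not overlap. The exact permutation test gave p = 0.1 (two-sided, adjusted 0.2 over 8 genes) for each, the smallest p that 3 against 3 libraries allow.

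The adult astroglia also carried RNA of myelinating cells, which express Olig1 and Olig2. All 10 oligodendrocyte markers checked were detected in 3m astroglia and called higher than at P3, with a summed level of 750 to 1973 CPM against 12.2 to 17.1, and 3m endothelial cells (788 to 1545 CPM) and microglia (187 to 2419) had them as well. Adult oligodendrocytes themselves were at 40977 to 61868 CPM. For each UMI of the myelin gene Mbp, pooled over libraries, there were 0.168 Olig1 UMIs in adult oligodendrocytes, 0.175 in telencephalic 3m astroglia, 0.271 in sub-cluster 13 and 0.0125 in sub-cluster 16. By library, the ratio was 0.178, 0.164 and 0.153 in oligodendrocytes and 0.463, 0.151 and 0.117 in telencephalic 3m astroglia.

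For each UMI of Sox10, by contrast, there were 2.52 Olig1 UMIs in oligodendrocytes, 45 in telencephalic 3m astroglia and 61.0 in sub-cluster 13, on 2 and 3 Sox10 UMIs. The part of oligodendrocyte RNA in the adult Olig1 and Olig2 levels was not tested. Among other cells of the same libraries, Olig1 was at 4.06 CPM in endothelial cells and 19.6 in microglia (5 UMIs). Telencephalic 3m astroglia had 27.5 ± 3.02 CPM.

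Within OPC_18 the mean level at 3m was above that at P3 for all 8 genes, but 2 of them were called. Only 13 cells (4, 8 and 1 per library) represent 3m, against 94 (12, 45 and 37) at P3, fewer than the 10 per library set as the minimum, so this test was added after the data had been seen. The 2 genes called higher at 3m were Neu4 and C1ql1, against 8.46% of 1099 genes called higher, 10.4% called lower and 18.8% called in either direction. The count was 4 without P3 replicate 1 or P3 replicate 3, and 1 without 3m replicate 1 or 3m replicate 2. The other 6 had positive differences of 0.51 to 0.99 on the log2 scale that were not called.

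Neu4 was at 377, 371 and 321 CPM at 3m and at 11.0, 31.1 and 55.9 at P3. The ages were far apart, and the difference was 3.36 ± 0.45 on the log2 scale (SE, adjusted p = 1.07e-06). A Neu4 UMI was found in 10 of 13 cells at 3m and in 11 of 94 at P3. At P3 the 8 cells with most Gpr17 held 17 of the 22 Neu4 UMIs, whereas at 3m 16 of 26 were in the 11 cells outside the Gpr17-high set, 8 of which had a Neu4 UMI.

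C1ql1 was at 1319, 1578 and 801 CPM at 3m and at 452, 671 and 606 at P3. These groups did not overlap, and the difference was 1.24 ± 0.31 (adjusted p = 0.00307). It was 0.99 without 3m replicate 1 and 0.80 without 3m replicate 2, and was not called in either case. In astroglia of the same libraries, C1ql1 was lower at 3m.

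Olig1 was at 4144, 3310 and 3045 CPM at 3m and at 2666, 2209 and 2706 at P3, and Olig2 at 1224, 1052 and 1122 against 727, 567 and 522. Pdgfra was at 973, 990 and 801 CPM against 573, 532 and 731. Groups did not overlap for any of these 3 genes, nor for Lhfpl3 (1005, 1578 and 2244 against 848, 792 and 974), but the differences of 0.51 ± 0.33, 0.95 ± 0.32, 0.68 ± 0.32 and 0.77 ± 0.31 were under 2-fold, and of these the adjusted p was under 0.05 for Olig2 alone (0.0239). Cspg4 (502, 557 and 160 CPM against 264, 197 and 307) and Gpr17 (565, 247 and 321 against 209, 156 and 429) overlapped between ages.

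The precursors of both ages also differed in astroglial RNA. Summed markers of astroglia were at 1794 to 2724 CPM in OPC_18 at 3m, with Sox9, Aqp4, Gja1 and Aldh1l1 at 0 UMIs, and at 6942 to 8464 at P3, where all 8 were detected and Sox9 was found in 61 of 94 cells. Cycling cells were 0 of 13 at 3m and 7 of 94 at P3, and leaving them out kept the calls of Neu4 and C1ql1. The part of these differences in the levels of the 8 genes was not tested.

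As a share of annotated cells, OPC_18 made up 0.499%, 0.572% and 0.102% of the 3m libraries and 0.477%, 1.24% and 0.734% of the P3 libraries. The groups overlapped, and the difference of -0.426 percentage points gave an exact permutation p = 0.3 (two-sided). With a stricter filter on cells the difference turned to 0.326 (exact permutation p = 0.8).

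The age effect differed between precursors and astroglia for the genes that were lower in adult astroglia. In a test of the difference itself, with library as a block and also added after the data had been seen, 4 of 6 genes were called, all with a higher effect in precursors (9.95% of 1096 genes were called in that direction, 8.39% in the other and 18.3% in either). The precursor effect was above the astroglial one by 2.57 ± 0.23 on the log2 scale for Olig1 (SE, adjusted p = 6.94e-11), 3.74 ± 0.36 for Olig2 (4.42e-10), 2.16 ± 0.68 for Cspg4 (0.0175) and 4.26 ± 0.84 for C1ql1 (0.000212). Pdgfra (1.11 ± 1.01) and Lhfpl3 (1.47 ± 0.63) were not called. Without P3 replicate 2, Olig1 and Olig2 alone were called.

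Summed over all barcodes of a library, where fewer cells of a type and less RNA per cell cannot be told apart, Cspg4 was lower at 3m and Neu4 higher, 2 of 8 genes called against 34.5% of 15407 genes. Cspg4 was at 8.74 to 9.14 CPM at 3m and at 24.4 to 46.0 at P3 (-1.80 ± 0.21, adjusted p = 0.000123), beside a median of -1.41 over the 6 mural markers, 4 of which were called lower. Neu4 was at 0.731 to 1.82 CPM against 0.124 to 0.337, on 30 and 27 UMIs (2.50 ± 0.52, adjusted p = 0.00318), and had too few counts to be tested among annotated cells only. Olig1 and Olig2 were at 457 ± 72.6 and 78.8 ± 14.99 CPM at 3m against 323 ± 22.9 and 97.4 ± 22.1 at P3 and were not called in either direction.

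Other regulators of the lineage included genes that were higher in adult astroglia. The same sums held oligodendrocyte markers at 750 to 1973 CPM at 3m against 12.2 to 17.1 at P3. The part of oligodendrocyte RNA in the levels of the regulators was not tested. Of 12 regulators, 9 were tested in astroglia, where 15.8% of all genes were called higher and 16.3% lower, and the genes called at 3m included Nkx6-2 (2.19), Myrf (3.07) and Tcf7l2 (1.15), all higher on the log2 scale, with a median of 0.40 over the 9. Nkx2-2 (-0.25), Sox8 (0.37) and Sox10 (0.40) were not called. Myrf is known as a regulator of myelin genes. The genes called between states, among 8 tested, included Sox10 (2.29), higher in cycling cells, and Nkx6-2 (-1.71), lower in them, and in OPC_18 Sox10 (1.14) was higher at 3m among 4.

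Of 12 other precursor genes, 11 were tested in astroglia, and 5 were lower at 3m, among them Vcan at -3.37, Cacng4 at -3.02, Ptprz1 at -2.15 and Rlbp1 at -1.66, and 2 higher (Matn4 at 3.70 and Gpr37l1 at 3.50), against 16.3% and 15.8% of all genes. In OPC_18, 6 of 10 were higher at 3m (8.46% of all genes), among them Tnr (1.83), Matn4 (2.04), Gpr37l1 (1.72), Vcan (1.49) and Cacng4 (1.30), and none was lower. In the test of the difference between precursors and astroglia, 5 of 10 had a higher age effect in precursors, among them Vcan and Cacng4, and 2 a lower one (Matn4 and Gpr37l1), against 9.95% and 8.39% of all genes. Between states at P3, 1 of 11 was called higher in cycling cells and 4 lower (Matn4, Ednrb, Gpr37l1 and Rlbp1), against 9.73% and 8.75% of all genes.

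Of 10 genes of newly formed oligodendrocytes, 7 were tested in astroglia and 4 were higher at 3m, among them Bcas1 (5.37), against 15.8% of all genes. The part of oligodendrocyte RNA in these adult levels was not tested. Of 5 tested in OPC_18, 2 were lower at 3m (Bcas1 and Cnp), against 10.4% of all genes. In cycling cells 2 of 6 were higher and 2 lower, against 9.73% and 8.75% of all genes, shares that hold for the next 2 lists as well. Among PDGF ligands and the receptor Pdgfrb, 3 of 4 tested in astroglia were higher at 3m (Pdgfc at 1.30, Pdgfd at 2.95 and Pdgfrb at 1.52), against 15.8% of all genes. In cycling cells 2 of 3 were lower. Of close relatives of the 8 genes, 6 of 12 were tested in astroglia. Neu1 (1.16), a lysosomal sialidase, was the single one called higher at 3m, a count near the 15.8% of all genes. Neu1 and C1ql3 were lower in cycling cells. C1ql3 was the single one tested in OPC_18 and was higher at 3m, as were 8.46% of all genes.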

How the data were processed

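Striatal ACSA2-sorted cells of 3 P3 and 3 3m mouse preparations were profiled on the 10x Chromium 3′ platform. The authors deposited raw UMI counts of 32285 genes in 16690 barcodes, made with Cell Ranger and mm10, and a table of clusters and sub-clusters made with Seurat (3.1.1 in the submitters' processing notes, whereas the study's methods name a later version). The same table holds a pseudotime score and its bins, which the authors made with Slingshot. All cells the authors annotated had at least 501 genes and at most 9.99648% mitochondrial UMIs, and 2317 barcodes outside these limits carried no annotation. No doublet caller was run here, and whether doublets were removed before deposit is not given in the sources used here.

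Counts were summed per library over astroglial cells, OPC_18 cells, cycling or non-cycling cells, or all barcodes, and tested with edgeR 4.0.16 (quasi-likelihood, TMM, filterByExpr, two-sided, Benjamini-Hochberg over all genes tested) in R 4.3.3. Calls required an adjusted p no higher than 0.05 together with a log2 change of 1 or more in either direction, the thresholds of the study's methods, which used DESeq2. DESeq2 1.42.0, other scaling, filters, cell subsets and leaving out each library were alternatives. Each library pooled several animals, so p-values measure the spread between preparations. Shares of cells were compared at 2000 UMIs per cell with an exact permutation test over libraries (SciPy 1.17.1), Wilson intervals at 95% and, for a count of 0, a limit of 3 UMIs or cells, all covering counting error only. Scripts were tested on simulated counts.

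The 8 genes were named in every comparison. They, the lists of regulators, other precursor genes, genes of newly formed oligodendrocytes, PDGF genes and relatives, and the cell type markers were chosen with earlier results of these data known. The OPC_18 age test and the test of the difference between cell classes were planned for libraries with at least 10 OPC_18 cells. No 3m library had as many, so both used all libraries and were chosen after seeing the data, as were the alternatives without cells holding 2 of 5 other precursor genes and the telencephalic split by state. Gene positions are from the GRCm38 annotation, and start-site windows from RefSeq. The position of Gpr17 and the windows of Olig1, Gpr17 and C1ql1 are not reported here, nor are the values of 1 gene of these lists, which the counts include.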

Additional observations from a re-analysis of the deposited data

Results flagged for a closer look

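The age effect differed between OPC_18 and astroglial cells for 4 genes in edgeR's quasi-likelihood test of the difference itself. The effect of 3m over P3 was higher in OPC_18 by 2.57 on the log2 scale for Olig1, 3.74 for Olig2, 2.16 for Cspg4 and 4.26 for C1ql1, on 13 adult OPC_18 cells. In OPC_18 the 3m libraries lay above the P3 libraries for Olig1, Olig2 and C1ql1, and in astroglia below them for all 4.

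The Olig1 difference between ages had opposite signs in the 2 groups of astroglia. Each group held mostly different sub-clusters at P3 and at 3m, so neither follows the same sub-clusters between ages. Its mean at 3m minus P3 was -469 CPM in telencephalic cells and 166 CPM in the other astroglia, with no overlap between ages in either group. Mbp was at 7148 ± 8462 CPM at 3m against 1.37 ± 1.03 at P3 in the other astroglia. Sub-cluster 16 held 3031 of these 3708 adult Mbp UMIs and 38 of the 221 Olig1 UMIs. The part of oligodendrocyte RNA in the Olig1 level was not tested. The difference between these groups was not tested, and 168 of the 202 cells of sub-cluster 13, which provided most of the adult Olig1 outside the telencephalic group, came from 3m replicate 2.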

How the results depend on the processing

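Of 500 values of single genes under alternatives, 462 kept their direction and their side of the threshold, 15 newly passed it, 7 no longer passed it and 16 changed sign, none of the last with a call. In astroglia 4 genes were called, 3 to 4 with 1 library left out, and 2 with libraries thinned to the smallest total, where Cspg4 and C1ql1 had too few counts to be tested. In OPC_18 the count was 2, but 4 without scaling, 1 without a filter on low counts and 1 to 4 with 1 library left out (1 without 3m replicate 1 or 3m replicate 2, 4 without P3 replicate 1 or P3 replicate 3). The difference between classes was called for 4 genes, and for 2 to 4 with 1 library left out (2 without P3 replicate 2). Between states 2 were called, 1 without cells with a Sox10 UMI (Pdgfra had too few counts), and 1 in telencephalic sub-clusters without cells holding 2 of 5 other precursor genes, a setting chosen after seeing the data. Over all barcodes the count was 2, and 1 in annotated cells only, where Neu4 had too few counts. The OPC_18 share turned to 0.326 points under the stricter cell filter.

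Signs turned for Pdgfra in astroglia under the stricter filter (0.81) and in the difference between classes without 3m replicate 2 (-0.0090, with 1 library left out up to 1.93), and for Gpr17 in OPC_18 without 3m replicate 1 (-0.21, up to 1.23). Without a filter in OPC_18, Olig1 (-0.28), Pdgfra (-0.11), Gpr17 (-0.14) and Lhfpl3 (-0.043) turned, where the median of all genes was -0.76. Over all barcodes with 1 library left out, Lhfpl3 ranged from -0.60 to 0.024 and turned without 3m replicate 1 (0.0024) or P3 replicate 2. Olig2 ranged from -0.31 to 0.058, turned without 3m replicate 3 (0.0021) or P3 replicate 2, and was at 0.089 in annotated cells. Shares of astroglia with a UMI, in percentage points, turned for Gpr17 without 3m replicate 1 (-0.069, up to 0.185 with 1 library left out) and at 1000 UMIs (-0.049), and for Pdgfra (-0.16) and Neu4 (0.18) without thinning. The cause was not tested.

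Without scaling the median of all genes in astroglia was -0.24 in place of -0.04, and the same 4 genes were called. In the test of the difference it called 316 genes (293 higher, median 0.63) in place of 201 (109 higher). Across all genes, the test of the difference called 442 without a filter and 314 without 3m replicate 3. In astroglia the counts were 4344 and 2674 with thinned libraries.

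Replicate numbers are shared between ages, and deviations of same-numbered astroglial libraries correlated at 0.206, 0.0993 and 0.0390 over 13530 genes. Libraries of different numbers were not compared, so these values cannot decide whether the samples share more than a number. With a replicate block 4420 genes were called in astroglia, 222 in OPC_18 and 5483 over all barcodes, with 4, 2 and 2 of the 8 genes. Without the library block, the test between states called 2256 genes (2437 with it) and the difference between classes 136 (201).

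Depth limits the rarest genes: at 3m astroglia held 1 to 9 UMIs of Gpr17, Neu4, C1ql1, Pdgfra, Lhfpl3 and Cspg4, and OPC_18 has 13 adult cells.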
